A study of Mus musculus with 2 samples.

Results

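Atp9a, Atp8b5, Abcg2 and Fabp5 are 4 genes for proteins that move or carry lipids and small molecules, taken from the 8139 gene symbols of an RNA sequencing table. They were picked by name because their values differed between the 2 libraries of the study, so that difference is described here and not tested. The cells were mast cells grown from the femoral marrow of C57BL/6 mice for 4 to 6 weeks with interleukin-3 at 10 ng/ml and stem cell factor at 5 ng/ml, and more than 97.5% of the cells used carried both the high-affinity IgE receptor and c-Kit. The WT group was 1 library from wild type cells and the Tet2-/- group was 1 library from cells lacking Tet2, on the same strain and in the same cytokines. How the Tet2 allele was made, and how many mice or cultures stand behind each library, is not given in the sources used here. Tet2 itself is not listed, so the expression values give no check of the genotype labels.

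Values are RPKM, reads scaled to gene length and library size, a level that may be compared between genes. Each genotype has 1 library, so differences could not be set against replicates and are given without p-values. From the steps between low values, the WT library was estimated to hold 31400000 fragments and the Tet2-/- library 31700000. Intervals in brackets are exact 95% intervals from the estimated fragments. They cover counting error only, not the spread between cultures or mice. In bulk RNA, fewer cells of a type and less RNA per cell cannot be told apart.

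Biological membranes hold different phospholipids on their inner and outer faces. P4-ATPases, the phospholipid flippases, use ATP to move phospholipids toward the cytosolic face, which keeps phosphatidylserine inside until scramblases expose it, and most of them need a CDC50 subunit to leave the endoplasmic reticulum. ABC transporters of the efflux type use ATP to carry drugs, porphyrins, lipids and conjugates out of the cell, and fatty acid binding proteins shuttle fatty acids through the cytosol. Mast cells release granules and make eicosanoids from membrane fatty acids, so membrane lipid handling is part of their activation.

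Tet2 oxidises 5-methylcytosine, which in mammals lies mostly in CG dinucleotides, so the DNA before the start sites of the members is shown with each CG in capitals. DNA methylation was not measured, and RPKM does not tell which start a transcript used. RefSeq windows (build GRCm38.p6) were found for 3 of the 4 members, Atp9a, Atp8b5 and Abcg2, with 8 start sites among them. The searched motif was CG, which reads the same on both strands. Each count is over the 250 bases before a start and is set against 32851 such windows of 27025 genes, whose median was 6 CG, with quartiles of 2 and 16. The lines give the bases of 5 windows that lie outside annotated exons of the same gene.
Atp9a, start 2, chr2:168741965-168742050, minus strand: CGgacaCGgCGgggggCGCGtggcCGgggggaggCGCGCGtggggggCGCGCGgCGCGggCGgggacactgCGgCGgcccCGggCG
Atp8b5, chr4:43266909-43267158, plus strand: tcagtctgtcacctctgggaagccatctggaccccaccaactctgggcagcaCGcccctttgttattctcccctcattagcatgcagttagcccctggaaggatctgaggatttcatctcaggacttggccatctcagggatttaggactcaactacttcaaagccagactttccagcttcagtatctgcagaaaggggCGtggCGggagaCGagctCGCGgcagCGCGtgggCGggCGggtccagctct
Abcg2, start 1, chr6:58584283-58584522, plus strand: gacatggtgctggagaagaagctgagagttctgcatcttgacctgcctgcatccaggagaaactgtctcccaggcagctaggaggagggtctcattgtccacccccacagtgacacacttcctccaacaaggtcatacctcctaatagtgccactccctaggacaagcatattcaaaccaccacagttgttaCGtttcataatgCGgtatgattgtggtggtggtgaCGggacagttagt
Abcg2, start 2, chr6:58596422-58596670, plus strand: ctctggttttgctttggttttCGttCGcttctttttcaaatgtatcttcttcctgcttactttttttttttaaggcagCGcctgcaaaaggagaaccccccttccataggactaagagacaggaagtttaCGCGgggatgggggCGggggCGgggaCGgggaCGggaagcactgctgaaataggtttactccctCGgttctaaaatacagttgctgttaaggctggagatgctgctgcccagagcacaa
Abcg2, start 3, chr6:58640296-58640545, plus strand: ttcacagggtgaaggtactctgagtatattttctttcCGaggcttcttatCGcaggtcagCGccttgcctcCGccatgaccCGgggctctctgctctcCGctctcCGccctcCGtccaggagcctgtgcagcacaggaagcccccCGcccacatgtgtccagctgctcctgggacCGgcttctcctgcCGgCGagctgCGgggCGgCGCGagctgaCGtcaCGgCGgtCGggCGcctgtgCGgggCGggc

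The starts of one gene differed widely in CG content. Start 2 of Atp9a had 53 CG in its 250 bases, and 0.0365% of all windows had as many or more. The 86 bases of it shown above hold 19 of them. The other Atp9a starts, whose bases are not shown, had 15, 2 and 6 CG. Annotated Atp9a exons cover 237 of the 250 bases before start 1 and 164 of those before start 2. Start 3 of Abcg2 had 23 CG, a count reached by 13.3% of windows, and start 1 had 3, a count reached by 71.0%. Start 2 of Abcg2 and the single Atp8b5 start had 10 CG each, a count reached by 37.8%. Among these windows Atp9a, the member lowest in Tet2-/- relative to WT, and Abcg2, the member highest, each had both a CG-rich and a CG-poor start.

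**Figure D1:**
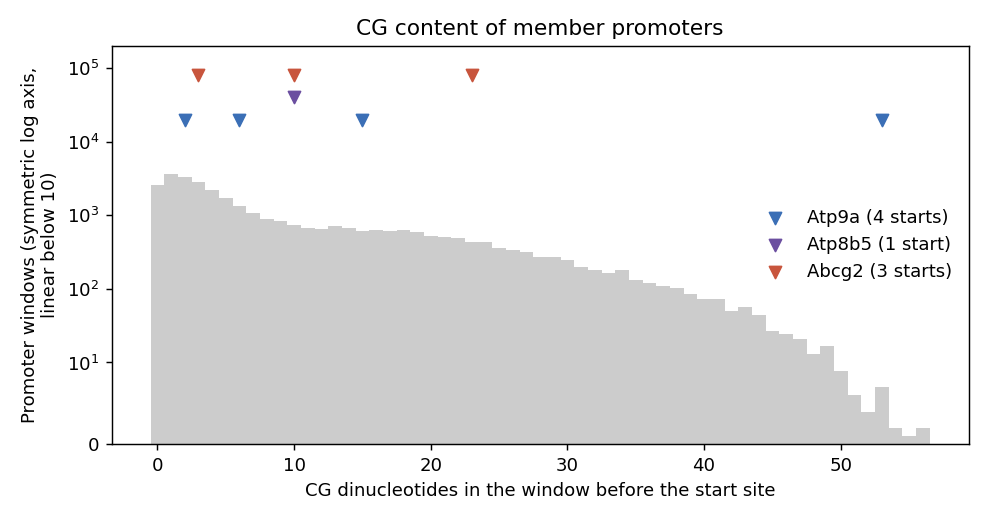
Grey bars count RefSeq promoter windows (vertical axis, symmetric log scale) by the number of CG dinucleotides in the 250 bases before the start (horizontal axis), and triangles mark the 8 windows of Atp9a, Atp8b5 and Abcg2, with no meaning in their height. Start 2 of Atp9a, at 53 CG, lies at the far right of the distribution, and the 3 Abcg2 starts lie at 3, 10 and 23.

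Atp9a was the member that differed most. Its product is a P4-ATPase of endosomes and the trans-Golgi network, linked to the recycling of membrane proteins from endosomes. The gene (ENSMUSG00000027546.15, chromosome 2, 168634438 to 168742409, minus strand, mm10) stood at 7.68 RPKM in the WT library (7.15 to 8.23) and at 0.0286 RPKM in the Tet2-/- library (0.00595 to 0.0843). These levels rest on an estimated 791 and 3 fragments for the shortest full coding transcript, of 3456 bases. The ratio of WT to Tet2-/- was 269 (90.8 to 1294), an interval left wide by the 3 fragments. On the log2(RPKM + 1) scale the difference was -3.08, rank 2 from the lowest among 1767 protein-coding genes of at least 500 bases whose mean reached 1 RPKM.

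Genes of like WT level are given beside the low Atp9a level in Tet2-/-. The members were chosen for their difference, so such counts, here and for the other members below, describe them and test nothing. Of 371 other protein-coding genes within 1.5-fold of its WT level, 0 had so low a ratio, the lowest Tet2-/- level among them being 0.292 RPKM and the median 8.12 RPKM. Of 1472 protein-coding genes at 5 RPKM or more in WT, 1 was under 0.1 RPKM in Tet2-/-, and it was Atp9a. The reverse pattern, at least 5 RPKM in Tet2-/- and under 0.1 in WT, was met by 0 of 1475 genes. Annotation gives Atp9a 11 transcripts, 9 of them coding, and no stretch of 50 bases of its full coding transcripts recurs in a transcript of another gene.

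Atp8b5 was the most abundant member and was lower in Tet2-/-. It encodes a P4-ATPase described mainly in testis and sperm. The gene (ENSMUSG00000028457.18, chromosome 4, 43267159 to 43373833, plus strand) was at 99.1 RPKM in WT (96.9 to 101) and at 50.2 in Tet2-/- (48.7 to 51.8), on an estimated 7576 and 3875 fragments. Its ratio of WT to Tet2-/- was 1.97 (1.90 to 2.05), and its difference of log2(RPKM + 1) was -0.97. That is just short of the size of 1 used for calling a gene lower. In level it ranked 149th in WT and 346th in Tet2-/- among 2107 models whose mean reached 1 RPKM. Of 156 other protein-coding genes within 1.5-fold of its WT level, 0 had so low a ratio, and their median in Tet2-/- was 92.8 RPKM.

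Abcg2 was higher in Tet2-/-. Its product, the breast cancer resistance protein, is a half-transporter that exports drugs, urate and porphyrins and is known from the side population of stem cells. The gene (ENSMUSG00000029802.13, chromosome 6, 58584523 to 58695676, plus strand) was at 1.25 RPKM in WT (0.980 to 1.55) and at 10.9 in Tet2-/- (10.1 to 11.7), on an estimated 78 and 691 fragments. The ratio of Tet2-/- to WT was 8.73 (6.94 to 11.2), and the difference of log2(RPKM + 1) was 2.40, rank 3 from the highest of the 1767 protein-coding genes. Of 109 other protein-coding genes within 1.5-fold of its WT level, 1 had a ratio as high, Ly6g, a granulocyte surface antigen gene. Among the 2107 models Abcg2 ranked 2015th in level in WT and 1223rd in Tet2-/-.

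Fabp5 was higher in Tet2-/- as well. Its product, the epidermal fatty acid binding protein, carries long-chain fatty acids and is found in keratinocytes, macrophages and adipose tissue. The gene (ENSMUSG00000027533.10, chromosome 3, 10012548 to 10016607, plus strand) was at 6.17 RPKM in WT (5.23 to 7.20) and at 18.9 in Tet2-/- (17.3 to 20.7), on an estimated 157 and 487 fragments. The ratio was 3.07 (2.56 to 3.70), and the difference of log2(RPKM + 1) was 1.48, rank 18 from the highest of the 1767 protein-coding genes. Of 313 other protein-coding genes within 1.5-fold of its WT level, 3 had a ratio as high, Slpi, Spp1 and Zfp36. The value of Fabp5 is uncertain because 21.1% of the 50-base stretches in its coding transcript recur in transcripts of 5 processed pseudogenes, 19.6% in Gm6166 alone, and none of these 5 symbols is listed.

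**Figure D2:**
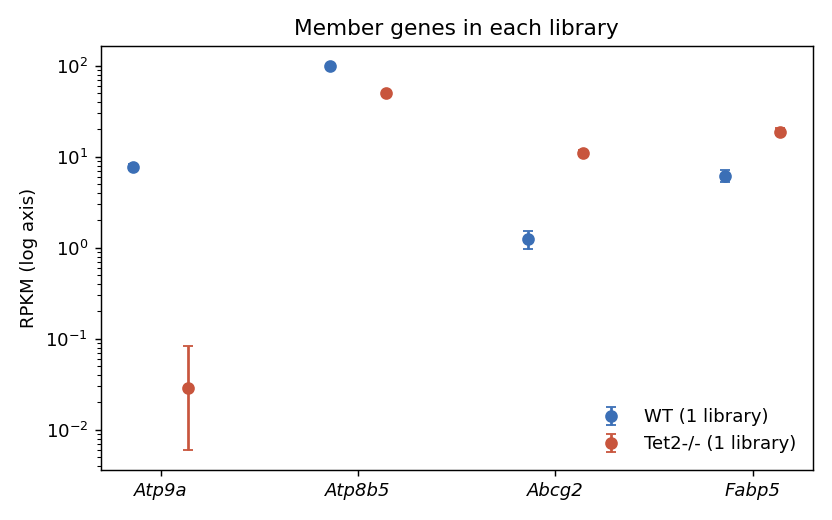
RPKM (log axis) of the 4 members in the WT library and the Tet2-/- library, 1 point per library, with bars for the exact 95% counting interval. Atp9a sits at 7.68 RPKM in WT and 0.0286 in Tet2-/- and Atp8b5 at 99.1 and 50.2, while Abcg2 sits at 1.25 and 10.9 and Fabp5 at 6.17 and 18.9.

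By the fixed rule, a mean of at least 1 RPKM and a difference of log2(RPKM + 1) of at least 1 in size, 2 members were higher (Abcg2 and Fabp5), 1 was lower (Atp9a) and Atp8b5 was not called. All 4 passed the filter on the mean. Over all 2107 models that passed, 61 (2.90%) were higher and 34 (1.61%) lower, 4.51% in either direction, and the median difference was 0.01. The members were chosen from this contrast, so nothing is read from their share.

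**Figure D3:**
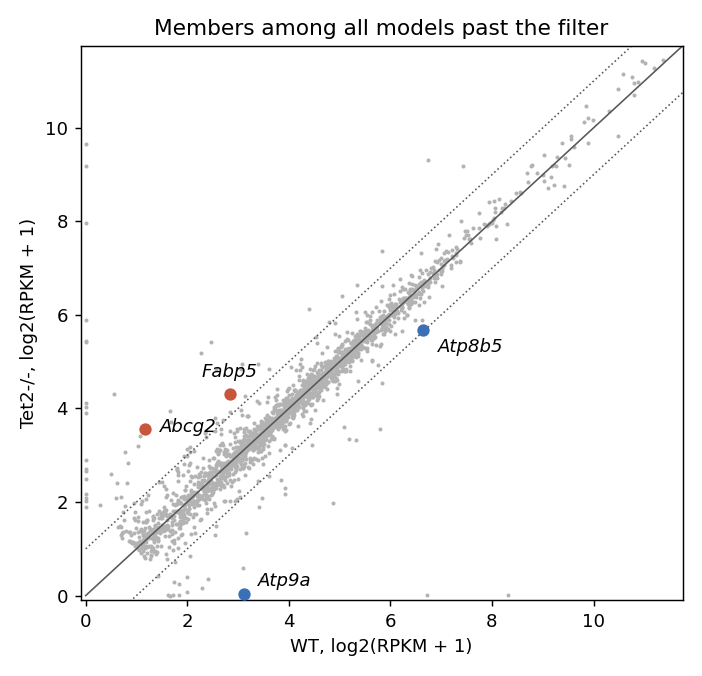
Level in Tet2-/- (vertical axis) against WT (horizontal axis), both as log2(RPKM + 1), for 2107 models whose mean reached 1 RPKM, with lines for equality (solid) and for a difference of 1 in either direction (dotted). Atp9a lies at the floor of the Tet2-/- axis, Abcg2 and Fabp5 above the upper dotted line, and Atp8b5 just inside the lower one.

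Among flippases both members, chosen for their difference, were lower, and Atp10d differed much less. Of 15 P4-ATPase genes 4 are listed, and all 4 passed the filter. Atp10d, a glucosylceramide flippase, was at 2.64 RPKM in WT and 2.36 in Tet2-/-. Its ratio of Tet2-/- to WT was 0.893, and the interval included 1 (0.578 to 1.36). Among these named flippases Atp9a was above Atp10d in WT (1.97 to 3.52) and below it in Tet2-/- (1.72 to 3.18), beyond the counting intervals in both libraries, and Atp8b5 was the highest in both.

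Summed over the 4 listed flippases, the level was 116 RPKM in WT and 58.0 in Tet2-/-, a ratio of 0.499. The sum was lower by 58.2 RPKM, of which Atp8b5 made up 84.0% and Atp9a 13.1%. Atp8b5 thus held 85.3% of the sum in WT and 86.6% in Tet2-/-, and Atp9a 6.61% and 0.0493%. The median difference of log2(RPKM + 1) over the 4 was -0.62, against 0.01 over all models, and 1 of the 4 was called lower. This median rests largely on the members, which were chosen for their difference.

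Partners of the flippases were sparsely listed. Of the 3 CDC50 genes, Tmem30c alone is listed, at 0.01 in WT and 0.0224 RPKM in Tet2-/-, on an estimated 0 and 1 fragments. The value 0.01 stands for most models and was read as no reads. Of 17 scramblase and exposure genes 2 are listed. Plscr2, of the phospholipid scramblase family, was at 2.75 and 2.17 RPKM (ratio interval 0.570 to 1.08), and Ano9 was listed at 0.01 in both libraries. Atp2c1, the calcium and manganese pump of the Golgi, was at 32.9 and 31.6 RPKM, so this P-type ATPase of another class differed by less than its counting error (ratio 0.960, 0.905 to 1.02). The 5 listed genes of 23 for retromer and endosome recycling, the compartment of Atp9a, had a median difference of 0.01 on the log2 scale. Of these Vps29, a retromer subunit, was at 94.0 and 111 RPKM, Snx1, a sorting nexin, at 62.7 and 67.5, and Mon2, a binding partner of the flippase complex, at 11.04 and 11.03. None of the 5 was called.

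Among ABC transporters Abcg2 took a different place in the order of levels in each library. Of 53 genes 6 are listed and 4 passed the filter, of which Abcg2 was the 1 called, as higher. Abcb1b, a P-glycoprotein that exports drugs, was at 53.7 RPKM in WT and 66.9 in Tet2-/-, a ratio of 1.25 (1.21 to 1.29). Abcc1, an exporter of conjugates such as leukotriene C4, was at 45.6 and 38.1 RPKM, with a ratio of 0.835 (0.810 to 0.860). Abcb6, a porphyrin transporter, was at 10.0 and 8.62 RPKM, with a ratio of 0.861 (0.781 to 0.951). In WT Abcg2 was the lowest of the 4 past the filter. In Tet2-/- its level of 10.9 RPKM (10.1 to 11.7) was above that of Abcb6 (8.02 to 9.26), and Abcb1b and Abcc1 were the 2 highest, as in WT.

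Abcg2 made up 1.13% of the summed level of listed ABC genes in WT and 8.74% in Tet2-/-. Without it the sum was 109 RPKM in WT and 114 in Tet2-/-. The median difference of the 4 genes past the filter was 0.06 on the log2(RPKM + 1) scale. Abca8a and Abca14, of the lipid-transporting class, were listed at 0.01 in both libraries. Of 21 genes of haem and porphyrin handling, a set that includes cargo-related genes of Abcg2, 5 are listed with Abcg2 and Abcb6 among them. Cpox, an enzyme of haem synthesis, was at 10.2 and 7.84 RPKM, and Hmox2, a haem oxygenase, at 28.1 and 28.4 RPKM. The ratio of Cpox had an interval below 1 (0.699 to 0.850), and that of Hmox2 included 1.

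Fabp5 was the single listed gene of its family with a level above 0.05 RPKM. Of 15 genes for fatty acid and retinoid binding proteins 5 are listed. Pmp2, Rbp2 and Rbp7 were listed at 0.01 in both libraries. Crabp2 was listed at 0.01 in WT and 0.0416 RPKM in Tet2-/-, on an estimated 1 fragment. Fabp4, the adipocyte and macrophage form, is not listed and was not used here.

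**Figure D4:**
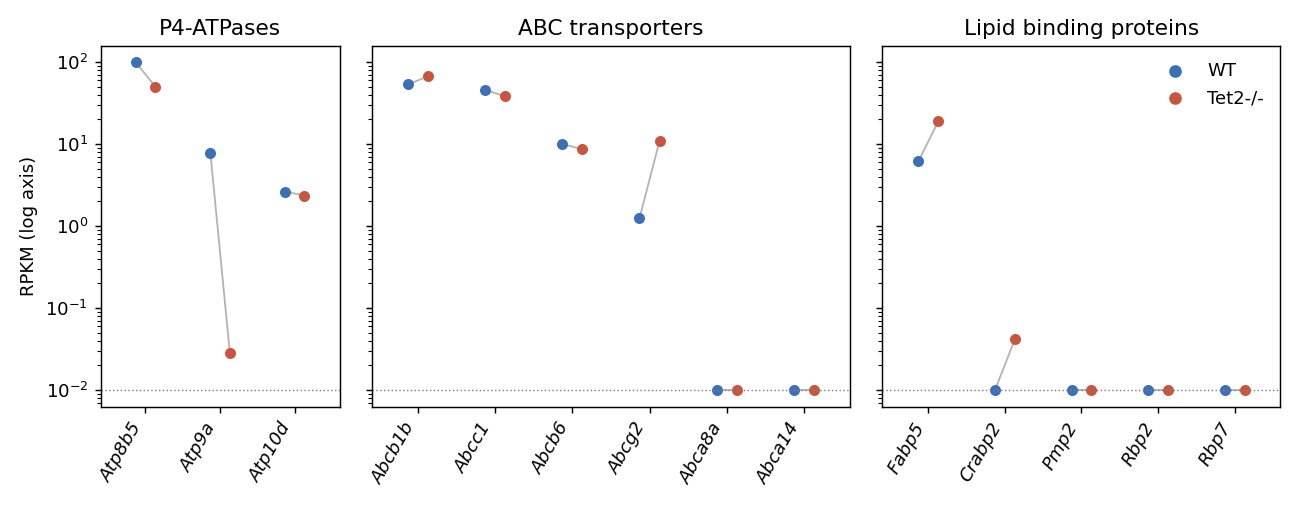
RPKM (log axis) of listed genes of the P4-ATPase, ABC transporter and lipid binding protein families in the WT and Tet2-/- libraries, with a line joining the 2 values of a gene and a dotted line at 0.01, the value read as no reads. Atp9a, Atp8b5, Abcg2 and Fabp5 have the steepest lines among the genes shown above 1 RPKM in either library.

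Genes past the filter that take up, make and store fatty acids differed less than the members, which were chosen for their difference. Over all 2107 models 90.6% differed by less than 1.5-fold on the log2(RPKM + 1) scale. Of 24 genes for uptake, activation and nuclear receptors 6 are listed and 3 passed the filter, with a median difference of -0.02 on the log2(RPKM + 1) scale. Acsbg1, an acyl-CoA synthetase, was at 12.6 RPKM in WT and 20.3 in Tet2-/-, a ratio of 1.61 (1.49 to 1.74). Acsl4, which activates arachidonic acid, was at 29.3 and 29.0 RPKM (ratio interval 0.948 to 1.03), and Acbd6, an acyl-CoA binding protein gene, was at 26.2 and 22.8 RPKM. Ppara, a nuclear receptor for fatty acids, was under the filter. It was at 0.162 RPKM in WT and listed at 0.01 in Tet2-/-, on an estimated 10 and 0 fragments.

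Of 34 genes of fatty acid synthesis and oxidation 5 are listed, and the 4 past the filter had a median difference of 0.19. Elovl1, an elongase of very long chains, was at 140 and 162 RPKM and Fads1, a desaturase on the route to arachidonic acid, at 81.2 and 70.2 RPKM. Of 25 lipid droplet and triglyceride genes 3 are listed. Lipe, hormone-sensitive lipase, was at 9.46 and 6.46 RPKM, with a ratio of 0.683 (0.571 to 0.811), and Hilpda, an inhibitor of triglyceride breakdown, was at 9.65 and 9.90 RPKM. None of the genes of these lists was called in either direction.

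Phospholipid and eicosanoid enzymes were likewise not called. Of 27 phospholipid synthesis genes 4 are listed, with a median difference of -0.14. Etnk1, ethanolamine kinase, was at 99.4 and 103 RPKM, Ept1, which makes phosphatidylethanolamine, at 24.0 and 27.3, Mboat1, a lysophospholipid acyltransferase gene, at 20.3 and 16.0, and Chka, choline kinase, at 12.1 and 9.23 RPKM. Of 27 phospholipase and lipid mediator genes 3 are listed. Lta4h, leukotriene A4 hydrolase, was at 113 and 118 RPKM and Hpgds, the prostaglandin D2 synthase of mast cells, at 68.9 and 66.5 RPKM. Over all 13 lists without the members, 46 of 302 genes are listed and 30 passed the filter. Of those, 0 were called higher and 0 lower, against 4.51% of all models, with differences from -0.49 to 0.64 and a median of -0.01. These counts describe the listed genes and single out none of the pathways.

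**Figure D5:**
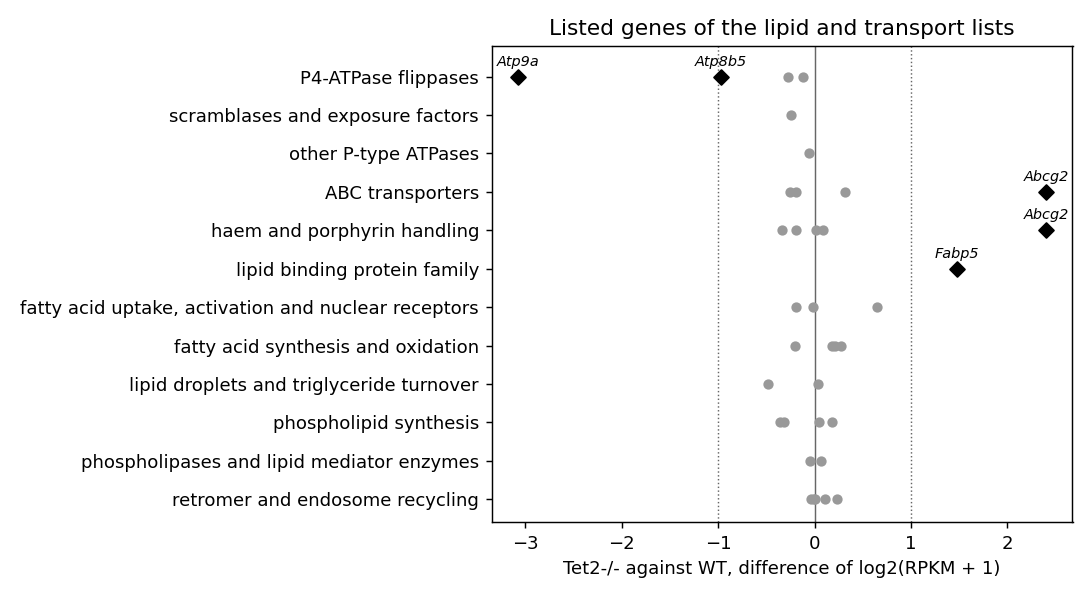
Difference of log2(RPKM + 1) between Tet2-/- and WT (horizontal axis) for each gene past the filter in the lipid and transport lists (rows), with members as black diamonds, other genes as grey circles and dotted lines at a difference of 1 in either direction. The other genes lie between -0.49 and 0.64, and Atp9a, Abcg2 and Fabp5 lie beyond the dotted lines.

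The genes nearest to each member in the plane of both log2(RPKM + 1) levels, among listed protein-coding genes and over 2 libraries only, differed from member to member. Nearest to Atp9a were Naip5, an inflammasome sensor gene, at 10.1 RPKM in WT and 0.292 in Tet2-/- (distance 0.48), Gm2004, at 7.50 and 0.498 RPKM (0.54), and Tlr6, at 4.30 and 0.277 RPKM (0.78). Nearest to Atp8b5 were Naaa, a lysosomal hydrolase of fatty acid ethanolamides, at 97.1 and 58.2 RPKM (0.21), Ncf4, a subunit of the phagocyte NADPH oxidase, at 88.9 and 58.8 RPKM (0.27), and Golim4, a Golgi membrane protein gene, at 74.1 and 49.5 RPKM (0.42). The 3 genes nearest to Atp8b5 lie closer to equality than Atp8b5 itself.

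Nearest to Abcg2 were Ly6g at 1.10 and 9.61 RPKM (0.19), Ctss, a lysosomal protease gene, at 1.03 and 8.22 RPKM (0.40), and the embryonic globin gene Hbb-y at 2.22 and 12.1 RPKM (0.54). Nearest to Fabp5 were Mamdc2 at 7.79 and 18.2 RPKM (0.30), Clec10a, a lectin gene of macrophages and dendritic cells, at 7.28 and 14.7 RPKM (0.40), and Tsc22d1 at 7.42 and 13.6 RPKM (0.50).

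Markers of other cell types are given beside Abcg2 and Fabp5. Whether each of these cell types expresses the 2 genes was not examined here. By the fixed rule 2 of 6 listed macrophage and monocyte markers passed the filter and both were called higher (Ly6c2 and Ctss). Ly6c2 reached the mean of 1 RPKM only through its Tet2-/- level. Of 3 listed neutrophil markers 1 passed and was called higher (Ly6g), and neither of the 2 eosinophil markers passed the filter. Over all 2107 models 2.90% were called higher. The 6 listed of 18 macrophage and monocyte markers had a summed level of 2.02 RPKM in WT and 31.6 in Tet2-/-. Most of that sum came from Ly6c2 and Ctss, and none of the 6 was at 0.01. The other markers of this list, all under the filter, were higher in Tet2-/- too, with intervals above 1. Their ratios were 10.9 for Csf1r (6.34 to 20.5), 14.4 for C1qb (4.66 to 73.1), 9.66 for Mrc1 (5.50 to 18.8) and 4.72 for Msr1 (2.10 to 11.4). Of 13 neutrophil markers 3 are listed, with sums of 1.12 and 10.1 RPKM. Csf3r was listed at 0.01 in both, and Mpo at 0.01 in WT and 0.458 RPKM in Tet2-/-, on an estimated 0 and 32 fragments. Of 9 eosinophil markers 2 are listed, with sums of 0.829 and 2.27 RPKM, and the ratio of Il5ra had an interval that included 1. Of 13 erythroid and megakaryocyte markers 2 are listed, Hbb-y, given above, and Ppbp at 0.01 in both. The single listed basophil marker of 3, Mcpt8, was at 56.1 and 163 RPKM. Of 10 adipocyte, keratinocyte and stromal markers 1 is listed, Col1a2, at 0.01 in both. Of 9 lymphocyte markers 2 are listed, with sums of 0.836 and 1.38 RPKM, and the lists of stem and progenitor cells and of dendritic cells have no listed gene. The part of these cells in the Abcg2 and Fabp5 values was not tested.

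Of 21 mast cell markers, given here beside the flippases, 5 are listed. Their sum was 1258 RPKM in WT and 1134 in Tet2-/-, a ratio of 0.901, beside 0.507 for Atp8b5 and 0.00372 for Atp9a. Fcer1g, the gamma chain of Fc receptors, was at 594 and 438 RPKM, Slc18a2, the vesicular monoamine transporter, at 572 and 491, Mitf at 31.3 and 30.9, and Smpx at 4.18 and 10.5 RPKM. Mcpt8, also the basophil marker above, is the remaining gene, at 56.1 and 163 RPKM. Of the 5, Mcpt8 and Smpx were called higher and 0 were called lower, against 2.90% and 1.61% of all models. The sum thus joins 2 markers that were higher in Tet2-/- and 3 that were lower. Its ratio is raised by Mcpt8, which is shared with the basophil list. Taken singly, the ratios were 0.736 for Fcer1g, 0.859 for Slc18a2 and 0.987 for Mitf, against 2.91 for Mcpt8 and 2.52 for Smpx. The interval of Mitf included 1. The defining receptor genes Kit, Fcer1a and Ms4a2 are not listed and were not used here. The part of mast cell number in the Atp8b5 and Atp9a values was not tested.

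Few listed genes lie near the members in the genome. Within 1 Mb of the 4 starts 26 listed genes were found, of which 5 passed the filter. All but one of those 5 lie near Atp8b5. There Dnajb5, a heat shock protein cofactor gene, was at 1.27 and 1.96 RPKM, Arhgef39 at 21.2 and 19.2, and Glipr2, 690 kb downstream, at 9.46 and 29.7 RPKM, the 1 neighbour called, as higher and so in the direction opposite to Atp8b5. Near Fabp5 the gene Zfand1 was at 15.7 RPKM in both libraries, and Pmp2, of the Fabp5 family and 171 kb downstream, was listed at 0.01 in both. The 3 listed neighbours of Atp9a were at 0.01 in both libraries. Of the 6 near Abcg2, 5 were at 0.01 in both and Gm37397 was at 0.900 and 0.656 RPKM. In the annotation no gene overlaps a member on the opposite strand.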

How the data were processed

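Illumina TruSeq libraries, 1 from WT and 1 from Tet2-/- mast cells, were made from total RNA, per the labels' protocols. The authors deposited 1 table of RPKM values and, per the file headers, 1 column holds each genotype. Per the submitters' processing notes, reads were placed on mm10. Which aligner, counter and annotation they used is not given in the sources used here. The value 0.01 stood for 58.1% of models in WT and 57.4% in Tet2-/-. It was read as no reads, although 67 and 80 models lie below it, so this reading is uncertain.

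Symbols were matched to GENCODE mouse release 21, the same build (7861 matched, 278 did not). Depth was estimated from genes of 1 transcript of at least 500 bases. RPKM times length, shortened by 175 bases, times depth gave a whole number of fragments, to within 0.1, for most genes used. The share was 95.1% of 371 genes in WT and 95.8% of 401 in Tet2-/-. Random values at a fixed setting would give 20%. The depths and the shortening were chosen to make this share largest, so 20% is not the level for fitted settings. These depths are inferred, not stated by the submitters. Fragments used the shortest coding transcript of the basic set, and intervals of ratios are exact Clopper-Pearson and those of levels exact Poisson at 95%.

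Fold changes are differences of log2(RPKM + 1), which understate the change of low genes, and ratios are of RPKM. A model was called at a mean of at least 1 RPKM and a size of at least 1. This rule of size stands in place of a test. Its calculation was checked on simulated data. Genes were named as the 4 members, any called gene and up to 4 of the most abundant others of each of 13 lists, every listed gene of the 3 families, and the 3 nearest genes to each member. Genes named outside these rules include Ppara. Single values of some genes that these rules took are not reported here, although they stay in the counts, sums and medians. The counts of genes of like WT level and the genes named from them were chosen after the values were seen, as were the neighbours and the CG counts. The members and lists were chosen with earlier results of these data known. The scripts ran under Python 3.11.15 with scipy 1.17.1, pandas 2.3.3, numpy 2.4.6 and, for plots, matplotlib 3.10.9.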

Additional observations from a re-analysis of the deposited data

How the results depend on the processing

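The direction of each member was the same under every pseudocount and the scaling, which a pseudocount cannot turn and which the scaling moved by only 0.0083. The log2 difference of Atp9a was -3.08 with a pseudocount of 1, -5.92 with 0.1, -1.33 with 5 and -8.07 with none, the last chosen after seeing the data. That of Abcg2 was 2.40, and 3.03, 1.35 and 3.13 under the same settings. That of Fabp5 was 1.48, and 1.10 with a pseudocount of 5. Atp8b5 ranged from -0.98 to -0.92 and was not called at 2-fold under any setting run. The counts of models higher and lower were 61 and 34. They were 33 and 14 under a pseudocount of 5, 40 and 16 when the mean had to reach 5 RPKM, 123 and 76 at 1.5-fold, 27 and 10 at 4-fold, and 30 and 16 among protein-coding genes of at least 500 bases. A pseudocount of 0.1 (90 and 46), no filter (68 and 42) and median-ratio scaling (61 and 34) stayed within 1.5 times. No paired analysis was possible because there is 1 library a genotype, which also means that leaving out a library gives no value. Depth limits Atp9a in Tet2-/-, which rests on 3 fragments.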
